A study of Mus musculus with 20 samples.

Results

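CTCF is a zinc finger protein that binds DNA through a long sequence motif and, with the cohesin ring, anchors chromatin loops. Many of its sites lie between genes or in introns, and others lie at promoters or just past the ends of genes. Thymine DNA glycosylase (TDG) cuts the oxidised cytosines 5-formylcytosine and 5-carboxylcytosine out of DNA, so cells without it keep more of both, and the title of the series asks how 5-carboxylcytosine bears on CTCF binding to poor sequences. The regions described here are the CTCF regions of intermediate rank that were found in every library and lie at the start or end of a gene, 1502 of the 54729 regions of the series.

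The members were chosen by measured values. Peaks of the 4 deposited CTCF lists that overlapped by at least 1 bp were merged, and the score the authors gave each peak was turned into a percentile within its own list, with the highest peak standing for a region. A member had a peak in all 4 lists, a percentile of at least 25 and below 90 in each, and a centre within 1 kb of either end of a gene locus in the authors' deposited table. There were 32740 regions with a peak in all 4 lists, and 16474 of them met the percentile limits, of which the 1502 members also met the distance limit. The percentiles are therefore given as descriptions, with no test. Just inside the lower limit lay the region at Gm608, at percentiles 25.1, 30.3, 30.9 and 27.9, and just outside it a region on chromosome 3 with 42.9, 24.97, 24.97 and 51.2, where the second value and the next were under the limit. Just inside the upper limit lay a region at Entpd6, with 60.6, 70.6, 89.998 and 75.9, and just outside it a region on chromosome 4 with 90.005, 76.8, 85.3 and 82.8. The outermost members lay 998 bp from a locus end, and the nearest regions beyond the limit were only a few bases further.

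The cells were mouse embryonic stem cells of 129 strain background, either wild type (WT) or with a knockout of Tdg (TDG KO), grown with LIF and serum on arrested embryonic fibroblasts and then depleted of the fibroblasts by replating. CTCF chromatin immunoprecipitation with sequencing (ChIP-seq) and sequencing of mRNA (RNA-seq) each covered 2 libraries per genotype. The labels name no allele for the knockout, and they do not say whether replicates were separate cultures or whether a genotype was more than 1 line, so genotype and cell line cannot be told apart. Polymerase II, IgG and input libraries were not analysed here.

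The deposited lists held 38303 peaks for WT replicate 1, 37099 for WT replicate 2, and 48514 and 48833 for the TDG KO replicates. Tdg itself was at 28.1 and 30.4 FPKM (fragments per kilobase of transcript, scaled to the mapped fragments) in WT and 5.50 and 4.74 in TDG KO, a log2 change of -2.31 ± 0.087 (SE). All 8 stem cell markers were expressed, with summed FPKM of 7397 and 8123 in WT against 5590 and 5803 in TDG KO, and 2 were higher and 4 lower in TDG KO. The 14 fibroblast markers summed to 540 and 389 FPKM in WT against 446 and 501 in TDG KO, with none at 0 in all libraries. Of these, 12 could be tested, and Vim rose while 9 fell. Vim, at 248 and 204 FPKM in WT against 318 and 354 in TDG KO, made up a large part of each sum. The sums therefore do not show the lower level of the 9 that fell. WT replicate 1 carried the most fibroblast RNA in sum, and the part of such cells in the results below was not tested. In such bulk samples fewer cells of a type and less RNA per cell cannot be told apart.

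Promoters show what kind of sequence the members cover. RefSeq promoter windows of 300 bases, from 250 bases before a gene start to 50 after it, held the centre of a member in 249 cases. Each was searched on both strands for a strict form of the CTCF core, CCANNAGNNGGC, for a loose form, CCNNNAGNNGGC, which contains the strict form, and for CCCTC, the short run after which CTCF is named, which can overlap either. Windows of 10 genes named later for their RNA held a member centre, and 6 are printed, the 4 with a match to the core first and then 2 without. The windows of Bdh2, Bptf, Col6a2 and Rpl36a, not shown, also held no match. They are from GRCm38.p6, 5′ to 3′ on the strand of the gene, with matches to the strict form (H13 and Rps4x) or the loose form (Zbtb33 and Pold1) in capitals, while Tdrd12 and Gm2694 hold neither.
H13, chr2:152669211-152669510, plus strand: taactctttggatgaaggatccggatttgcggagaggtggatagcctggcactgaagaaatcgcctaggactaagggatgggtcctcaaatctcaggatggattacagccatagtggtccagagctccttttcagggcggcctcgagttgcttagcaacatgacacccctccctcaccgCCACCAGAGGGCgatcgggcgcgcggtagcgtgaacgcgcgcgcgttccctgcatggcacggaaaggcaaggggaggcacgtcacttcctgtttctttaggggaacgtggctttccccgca
Rps4x, chrX:102189342-102189641, minus strand: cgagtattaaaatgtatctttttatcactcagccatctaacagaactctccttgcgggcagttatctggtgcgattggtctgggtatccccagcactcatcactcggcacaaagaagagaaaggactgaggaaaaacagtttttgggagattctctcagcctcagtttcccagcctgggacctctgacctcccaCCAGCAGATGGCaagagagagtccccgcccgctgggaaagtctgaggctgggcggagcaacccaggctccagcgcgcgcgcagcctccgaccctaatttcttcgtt
Zbtb33, chrX:38189543-38189842, plus strand: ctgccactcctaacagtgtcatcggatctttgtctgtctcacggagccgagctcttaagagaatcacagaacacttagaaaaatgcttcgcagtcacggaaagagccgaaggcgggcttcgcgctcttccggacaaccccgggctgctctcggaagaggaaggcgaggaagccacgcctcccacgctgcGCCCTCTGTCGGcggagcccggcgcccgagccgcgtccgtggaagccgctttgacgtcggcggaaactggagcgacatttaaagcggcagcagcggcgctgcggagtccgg
Pold1, chr7:44548766-44549065, minus strand: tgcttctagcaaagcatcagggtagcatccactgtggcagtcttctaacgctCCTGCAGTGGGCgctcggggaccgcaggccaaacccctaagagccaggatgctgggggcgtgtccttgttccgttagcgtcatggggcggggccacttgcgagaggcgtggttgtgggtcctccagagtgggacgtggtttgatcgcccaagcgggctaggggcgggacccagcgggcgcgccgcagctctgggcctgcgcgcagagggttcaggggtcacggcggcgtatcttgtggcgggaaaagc
Tdrd12, chr7:35537666-35537965, minus strand: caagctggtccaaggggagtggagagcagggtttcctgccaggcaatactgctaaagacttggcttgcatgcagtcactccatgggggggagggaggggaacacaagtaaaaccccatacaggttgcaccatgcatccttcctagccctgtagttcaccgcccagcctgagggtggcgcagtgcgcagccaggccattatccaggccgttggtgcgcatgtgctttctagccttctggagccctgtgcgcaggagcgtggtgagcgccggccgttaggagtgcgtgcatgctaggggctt
Gm2694, chr8:87472866-87473165, plus strand: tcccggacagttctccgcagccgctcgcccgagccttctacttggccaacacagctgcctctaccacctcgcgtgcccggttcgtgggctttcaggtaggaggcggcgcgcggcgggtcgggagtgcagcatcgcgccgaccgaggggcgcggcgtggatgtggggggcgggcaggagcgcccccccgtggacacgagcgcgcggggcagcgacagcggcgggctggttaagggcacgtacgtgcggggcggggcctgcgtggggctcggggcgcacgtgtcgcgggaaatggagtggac

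The printed matches lay at most 34.5 bp from the centre of their CTCF regions. Each window was chosen to hold that centre, which limits the distance. The strict match of H13, a signal peptide peptidase gene that hosts an imprinted domain, was centred 34 bp from the region centre, and that of Rps4x, a ribosomal protein gene of the X chromosome, 8.5 bp. The loose match of Zbtb33, which encodes the methyl-CpG binding protein Kaiso, was on the opposite strand from the gene and 34.5 bp from the centre. The loose match of Pold1, the catalytic subunit of DNA polymerase delta, was 4 bp from the centre. The windows of Zbtb33 and Gm2694 were rich in CpG dinucleotides, with 34 and 42 of them, while that of Tdrd12 had 11.

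Matches to the CTCF core were less common at members than at the strongest shared regions and more common than at promoters in general. The loose form was found in 107 of 249 member windows (43.0%, exact 95% interval 36.7 to 49.4) and in 51 of 79 windows of shared regions at or above the 90th percentile in every list (64.6%, 53 to 75). Those 2 intervals do not overlap. It was found in 40 of 107 windows of shared regions under the 25th percentile in at least 1 list (37.4%, 28.2 to 47.3) and in 17 of 50 windows of TDG KO-only regions, those with a peak in each TDG KO list and in no WT list, (34%, 21.2 to 48.8), and both intervals overlap that of the members. Of all 32851 promoter windows, 8.61% held the loose form, and of the 12454 windows with at least 13 CpG dinucleotides, the lower quartile of the members, 14.4%. The strict form ran in the same order, at 26.6%, 16.1%, 12.1% and 8.00% in the classes from strongest to TDG KO-only, against 2.43% of all promoters and 2.89% of the CpG-rich ones. The intervals of the strict form overlapped between neighbouring classes. CCCTC was in 79.1% of member windows and in 79.1% of CpG-rich promoters, so it did not set the members apart from promoters of like CpG content.

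**Figure D1:**
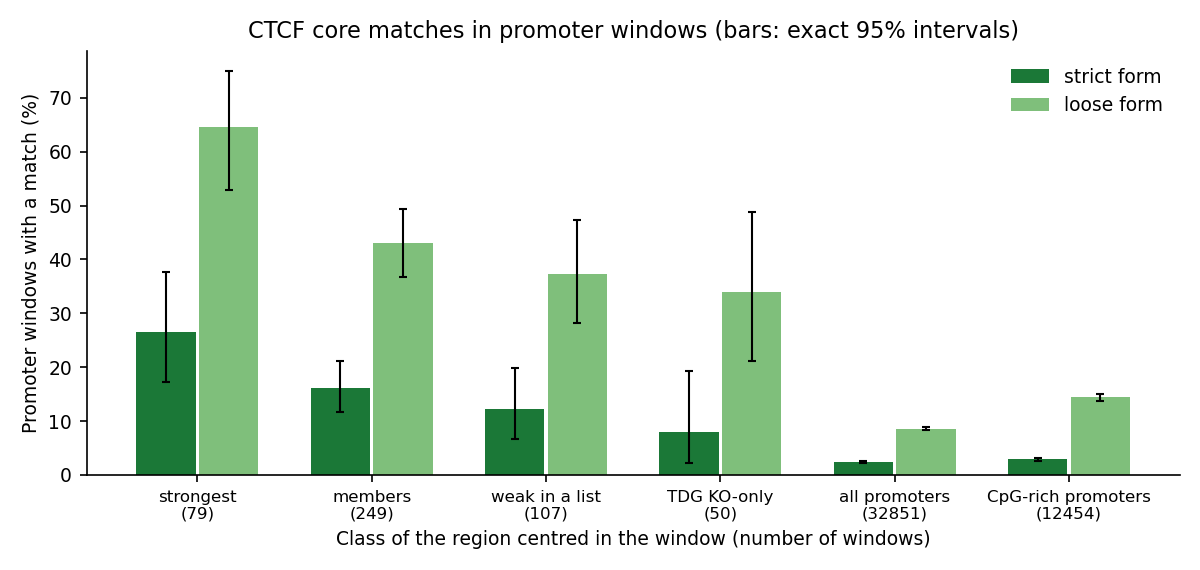
Share of promoter windows (y axis, percent) with a match to the strict or loose CTCF core, by the class of the region centred in the window (x axis, number of windows in brackets). Bars with error bars are shares with exact 95% intervals. Members, at 43.0% for the loose form, lie below the strongest regions at 64.6% and above all promoters at 8.61%.

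Members with and without a match had similar ranks within the limits of the rule. Only percentiles of at least 25 and below 90 were kept, which narrows any difference in rank between them. The distance from a loose match to the region centre had a median of 35.5 bp, and 63 of the 107 windows (58.9%) had it within 50 bp. That median was 21 bp for the strongest regions at gene ends, and 24.5 bp for both the weak and the TDG KO-only ones. A CpG lay inside the match in 43 of the 107 member windows (40.2%). The 107 windows with a match had median percentiles of 64.1 and 52.2 in the WT lists and 67.8 and 69.1 in the TDG KO lists. The 142 windows without one had 68.4, 55.9, 67.8 and 69.3. The windows with and without a match thus had nearly the same medians in both TDG KO lists, and those without were slightly higher in both WT lists. The median TDG KO minus WT percentile was 8.04 with a match and 6.002 without, with quartiles of 1.25 to 16.2 and -1.38 to 15.0 that largely coincide.

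The share of regions that lie at a gene end differed with strength. Of the mid-strength shared regions 9.12% (8.68 to 9.57) lay at a gene end, against 18.5% (16.4 to 20.7) of the 1299 strongest shared regions, 9.21% (8.59 to 9.86) of the 8119 weak ones and 8.38% (7.68 to 9.11) of the 5885 TDG KO-only regions. Mid-strength regions were thus at gene ends about as often as weak ones and less often than the strongest, whose interval lies wholly above theirs. The share depends on the distance allowed and was 5.66% within 500 bp and 15.4% within 2 kb.

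Around genes of known strand, the members gathered just before the start. There were 607 members within 1 kb of a RefSeq gene start, and 220 of them (36.2%) had their centre in the 250 bp before it, against 72 (11.9%) in the 250 bp after it. The strongest regions were more concentrated there, with 72 of 128 (56.3%), and the weak ones less, with 89 of 311 (28.6%). At gene ends the members were more spread out. Of 369 such members the fullest bin was 250 to 500 bp past the end, with 77 (20.9%), and the bin just inside the end held the fewest, 29 (7.86%). Starts on both strands met at 56 members, as in a bidirectional promoter, ends on both strands at 13, and a start and an end at 41. For 567 members no end of known strand was found in the RefSeq tables used. Strand was known only for genes with a promoter entry, 959 of the 1501 genes at members, so some of these 567 lie at a RefSeq end whose direction was not read, as at Tgm2, 48.5 bp from the centre.

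**Figure D2:**
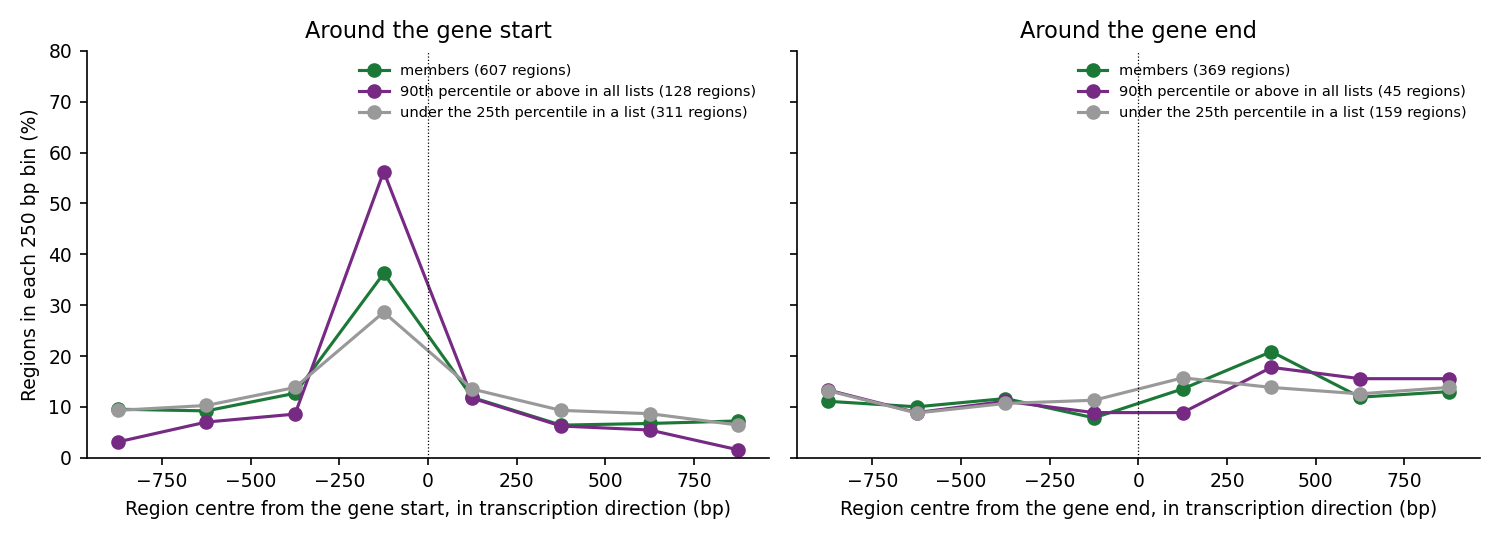
Position of region centres around RefSeq gene starts (left) and gene ends (right), as the percent of regions (y axis) in bins of 250 bp (x axis, negative values before the start or end in the direction of transcription). Members peak in the bin before the start at 36.2%, between the strongest regions at 56.3% and the weak ones at 28.6%.

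The level of the members in each list showed how far the lists can be compared. The median percentile of the members was 60.7 in WT replicate 1, 55.8 in WT replicate 2 and 66.8 in each TDG KO list. Mid-strength regions away from gene ends had medians of 57.3 and 56.0 in WT against 65.0 and 65.6 in TDG KO. The mean TDG KO minus mean WT percentile of a member had a median of 7.24, with quartiles from -0.13 to 14.9. Both TDG KO values were above both WT values at 556 members (37.0%) and below at 106 (7.06%), near the 37.8% and 6.79% of the 14972 mid-strength regions away from gene ends.

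That difference did not remain when lists of equal length were ranked. In a longer list that holds more weak peaks, the percentile of a given peak is higher. Both TDG KO lists were the longer ones, so list length and genotype cannot be told apart here. When each list was limited to its 37099 strongest peaks and the same 1502 members were ranked again, the median difference was -2.65. Both TDG KO values were then above both WT values at 234 members (15.6%) and below at 355 (23.6%), against 14.6% and 24.9% of the mid-strength regions elsewhere. The medians became 59.4 and 55.8 in WT against 56.6 and 56.2 in TDG KO, all within the range set by the 2 WT lists. The percentiles therefore give no direction for CTCF at the members as a whole. This ranking and its values by position and chromosome below were chosen after the data were seen.

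WT replicate 1 stood apart from the other lists at gene starts. At the 232 members with a centre 0 to 250 bp before any gene start, the median percentile was 67.8 in WT replicate 1 and 54.7 in WT replicate 2, against 67.8 and 69.5 in TDG KO. WT replicate 1 was above WT replicate 2 at 173 of the 232. With equally many strongest peaks the medians were 66.7, 54.7, 57.8 and 59.8, so WT replicate 1 remained the highest and the 2 WT lists lay on either side of both TDG KO lists. At the 567 members with no end of known strand, the 2 WT medians were 56.8 and 55.2. Away from gene ends, WT replicate 1 was above WT replicate 2 at 7781 of 14972 mid-strength regions, with medians of 57.3 and 56.0. The TDG KO minus WT difference before gene starts was 1.53 against WT replicate 1 alone and 11.5 against WT replicate 2 alone, so 1 library sets its size.

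**Figure D3:**
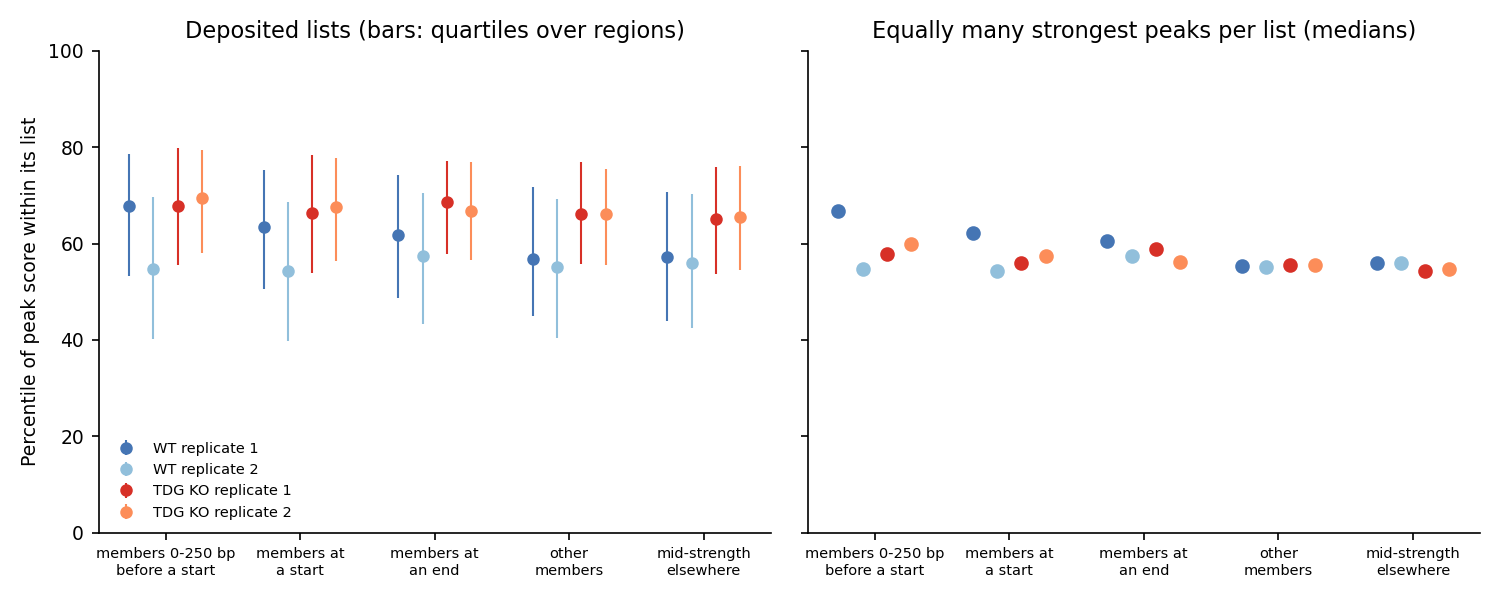
Percentile of peak score within its list (y axis) for 5 groups of regions (x axis) in the 4 lists, as deposited (left, median with quartiles over regions) and with the 37099 strongest peaks of each list (right, medians). On the left both TDG KO lists lie at or above both WT lists in every group; on the right they do not, and WT replicate 1 is highest just before gene starts, at 66.7.

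Peak width was not used to choose the members. The median width of a member's peak was 288 and 265 bp in WT against 335 and 318 bp in TDG KO, so the groups did not overlap. The mean of the medians was 276.5 ± 16.3 bp in WT and 326.5 ± 12.0 bp in TDG KO (SD, n = 2 lists), and an exact permutation test of 2 against 2 lists gave its smallest possible p, 0.33. Peaks were wider in TDG KO without overlap at 767 members (51.1%) and narrower at 25 (1.66%). All peaks of the lists were also wider in TDG KO, with medians of 267 and 259 bp in WT against 296 and 278 bp in TDG KO. Mid-strength regions away from gene ends widened alike, from 278 and 266 bp in WT to 330 and 312 bp in TDG KO, and were wider without overlap in 50.1% and narrower in 1.94%, so the width at members was near that of other mid-strength regions. Relative to all peaks of its own list, a member's width was 1.05 ± 0.039 in WT and 1.14 ± 0.0086 in TDG KO (exact permutation p = 0.33), and that of mid-strength regions elsewhere 1.03 ± 0.010 and 1.12 ± 0.0053.

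Single members ranged from steady to strongly shifted in the deposited lists. Those lists were longer in TDG KO, so a member steady here need not be steady in lists of equal length. The steadiest was a region at Gpr61, an orphan G protein-coupled receptor gene, at chr3:108147941-108148249 (mm10), with percentiles of 81.0, 80.8, 80.9 and 82.8 in the 4 lists. At Slc7a6, an amino acid transporter gene, the values were 71.8, 74.3, 71.4 and 72.3. Over all members the highest and lowest of the 4 percentiles lay a median of 22.4 apart. The furthest upward shift was at Ighv1-74, an immunoglobulin variable gene segment, with 35.5 and 33.3 in WT against 83.1 and 78.5 in TDG KO. At Htr3b, a serotonin receptor subunit gene, the values were 37.1 and 29.5 in WT against 76.6 and 77.7 in TDG KO. Among the 4 highest shifts were also 2 regions of chromosome 11, at Tex19.1 with 30.7 and 40.9 against 80.6 and 75.5 and at chr11:59526410-59526768 with 33.1 and 26.9 against 74.3 and 72.9. In the opposite direction, the region between Alkbh7 and Clpp, a mitochondrial hydroxylase-family gene and a mitochondrial protease gene, at chr17:56996971-56997266, had 80.9 and 81.7 in WT against 55.6 and 38.1 in TDG KO. A region at Apoo and Fam90a1b on the X chromosome had 69.0 and 52.1 in WT against 39.1 and 26.7 in TDG KO.

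Chromosome 11 stood apart from the other chromosomes in both CTCF rank and RNA. Its 85 members had a median TDG KO minus WT percentile of 26.2, while the medians of the other 19 chromosomes with members ran from 2.04 to 11.3. The 85 members had medians of 47.6 and 47.8 in the WT lists against 79.2 and 70.0 in the TDG KO lists. Both TDG KO values were above both WT values at 70 of the 85 (82.4%), against 34.3% of members on the other chromosomes. With equally many strongest peaks the difference on chromosome 11 was 17.8, against -3.55 on the other chromosomes. Both TDG KO values were then above both WT values at 51 of its 85 members (60%), against 12.9% of members on the other chromosomes. The shift was not limited to gene ends, since the 599 mid-strength regions of chromosome 11 away from them had a median of 24.0, against 6.69 elsewhere. Of 55 tested genes at its members 36 rose and 3 fell, with a median log2 change of 0.40. Over all 1028 tested genes of the chromosome 674 rose and 54 fell, with a median of 0.37, so genes at members moved much as the rest of the chromosome did. Whatever sets the RNA and the CTCF rank of chromosome 11 in these libraries was not tested.

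**Figure D4:**
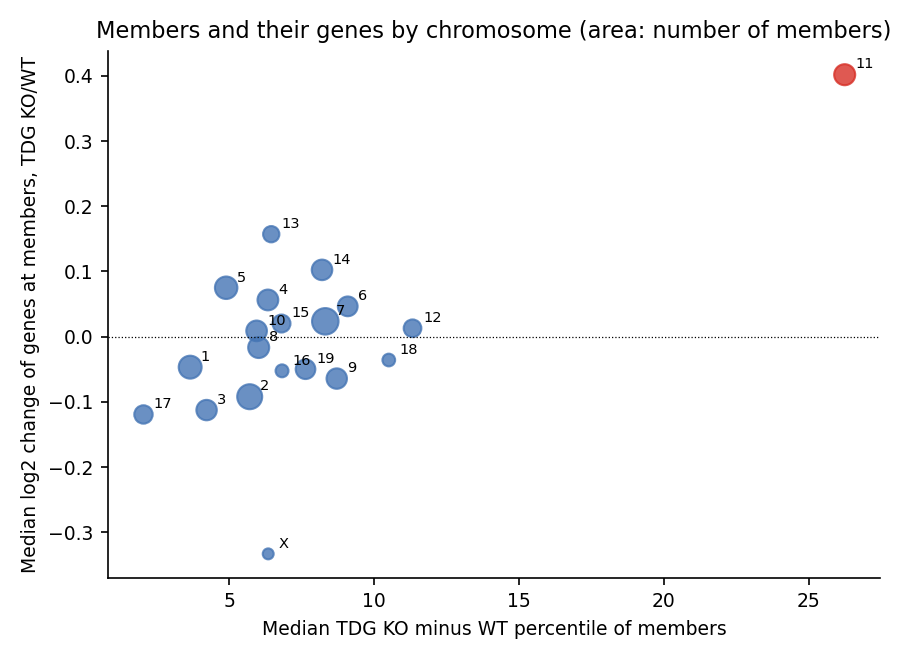
Median TDG KO minus WT percentile of members (x axis, deposited lists) and median log2 change of tested genes at members (y axis), each point a chromosome with its number beside it and its area in proportion to the number of members. Chromosome 11, in red at 26.2 and 0.40, lies far from the others, which run from 2.04 to 11.3 on the x axis.

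Across the 805 pairs of a member and a tested gene, the percentile difference and the log2 change of RNA had Pearson's r of 0.18 and Spearman's rho of 0.15, as a description over pairs that share libraries and chromosomes. Without chromosome 11 the values were 0.097 and 0.087 over 750 pairs, so the weak relation was weaker still without that chromosome. Genes at the 556 members with both TDG KO values above both WT values rose in 105 and fell in 64 of 284 tests, and without chromosome 11 in 75 and 62 of 239. Leaving out this chromosome was chosen after the data were seen. At the 106 members with both TDG KO values below, 12 rose and 19 fell of 67. Over all tested genes 24.4% rose and 29.5% fell, and over those outside chromosome 11 20.6% and 31.8%. The members in these counts were picked by the percentiles, so the counts carry no test.

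The genes beside the members were mostly protein-coding. Where a locus was shared by several overlapping genes, a gene was kept only if its own RefSeq end lay within 1 kb of the centre, which left 1501 genes at 1420 members. Of these 72.6% were protein-coding in RefSeq, against 43.0% of all 46939 genes of the table, many of which had no RefSeq match. Genes of shared loci without a RefSeq end near a member were dropped from the 1501 but not from the 46939. The choice of genes can therefore raise the share at members. Expression was tested with limma on log2(FPKM + 1) over the 12035 genes whose mean FPKM was 1 or more, at an adjusted p of 0.05, so fold changes of low genes are understated. Of the 1501 genes 781 passed the expression filter (52.0%, against 25.6% of all genes), so the counts below are for those and not for all members' genes. With every gene of a locus that ends at a member kept, 988 of 2536 passed (39.0%).

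The share of changed genes at members was near that of all genes. In TDG KO 206 of the 781 rose (26.4%, where 24.4% of all tested genes rose) and 192 fell (24.6%, where 29.5% of all fell), so 398 were called in all (51.0%, against a background of 54%). A called change of at least 1 log2 was found in 25 of 781 (3.20%, background 4.92%). Their median log2 change was 0.0026, against -0.044 for all tested genes. Without chromosome 11 the counts were 170 and 189 of 726 and the median was -0.017, against 20.6%, 31.8% and -0.075 for all tested genes outside that chromosome. With a member at the start only, 97 genes rose and 77 fell of 363, and with a member at the end only, 58 rose and 55 fell of 199. At members where starts on both strands meet, 12 of 45 genes rose and 6 fell, and none passed 1 log2. Among members, the level of RNA showed almost no relation to the rank of the member, with r of 0.021 and rho of 0.017 across 1548 pairs between the mean WT percentile and log2(mean WT FPKM + 1). The rule kept only percentiles of at least 25 and below 90, which narrows any such relation.

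Nes, Tdrd12 and Tex19.1 rose most among the genes at members. Nes, which encodes the intermediate filament nestin of neural progenitors, was at 2.90 and 2.70 FPKM in WT against 11.7 and 10.8 in TDG KO, a log2 change of 1.68 ± 0.083 (SE, adjusted p = 2.4e-05, limma with Benjamini-Hochberg adjustment, as for every adjusted p here). Tdrd12, a Tudor domain gene of the piRNA pathway that silences transposons in the germ line, was at 11.3 and 13.2 FPKM in WT against 35.3 and 37.2 in TDG KO, a rise of 1.49 ± 0.085. Tex19.1, a germ cell and placental gene that restrains retrotransposons, was at 73.2 and 78.5 in WT against 205 and 223 in TDG KO, a rise of 1.48 ± 0.071. In these 3 genes both TDG KO libraries were well above both WT libraries. The member at the Tdrd12 start, whose window is printed above, had percentiles of 73.6 and 62.3 in WT against 87.9 and 87.8 in TDG KO. Percentiles of members beside named genes, here and below, are from the deposited lists, which were longer in TDG KO. The member at the end of Tex19.1 is the chromosome 11 region given above. Sfn, the epithelial 14-3-3 sigma gene, was at 24.5 and 26.0 FPKM in WT against 59.1 and 59.4 in TDG KO. Its member showed how far replicates could differ, at percentiles 81.4 and 28.6 in WT against 69.5 and 77.5 in TDG KO. Upp1, the uridine phosphorylase gene on chromosome 11, went from 166 and 179 to 366 and 393 FPKM, and Mdk, which encodes the growth factor midkine, from 65.3 and 66.1 to 138 and 140. The other genes of the 8 with the highest change were Gm2694, whose window is printed above, at 10.0 and 10.7 FPKM in WT against 26.4 and 33.4 in TDG KO, and Timm8a2, a relative of a mitochondrial import gene, at 3.08 and 2.98 against 8.03 and 9.90.

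Bdh2, B4galnt4 and Ccl7 fell most. Bdh2, which encodes a cytosolic hydroxybutyrate dehydrogenase, was at 18.9 and 20.6 FPKM in WT against 5.00 and 5.11 in TDG KO, a log2 change of -1.77 ± 0.074 (adjusted p = 1.5e-05). The member at its start had percentiles of 60.3, 71.2, 67.7 and 69.3, so the RNA fell where the CTCF percentiles of the 2 genotypes overlapped. B4galnt4, a glycosyltransferase gene, went from 25.7 and 24.9 to 10.2 and 9.73 FPKM. Ccl7, a chemokine gene, was at 17.7 and 11.5 in WT against 5.92 and 6.81 in TDG KO, with WT replicate 1 the higher as for the fibroblast markers, and whether fibroblast RNA takes part was not tested. Ptprv, a phosphatase gene, was at 15.2 and 24.2 in WT against 9.03 and 9.75 in TDG KO, and the authors' deposited table gives it a q-value of 0.298. Without TDG KO replicate 1 the adjusted p of Ptprv was 0.057, and without WT replicate 2 its log2 change was -0.64 in place of -0.96. The other 4 of the 8 were Dlgap3, a synaptic scaffold gene, at a log2 change of -0.89, Tgm2, the tissue transglutaminase gene, at -0.88, Pidd1, a p53-induced death domain gene, at -0.88, and the integrin gene Itga9 at -0.87.

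**Figure D5:**
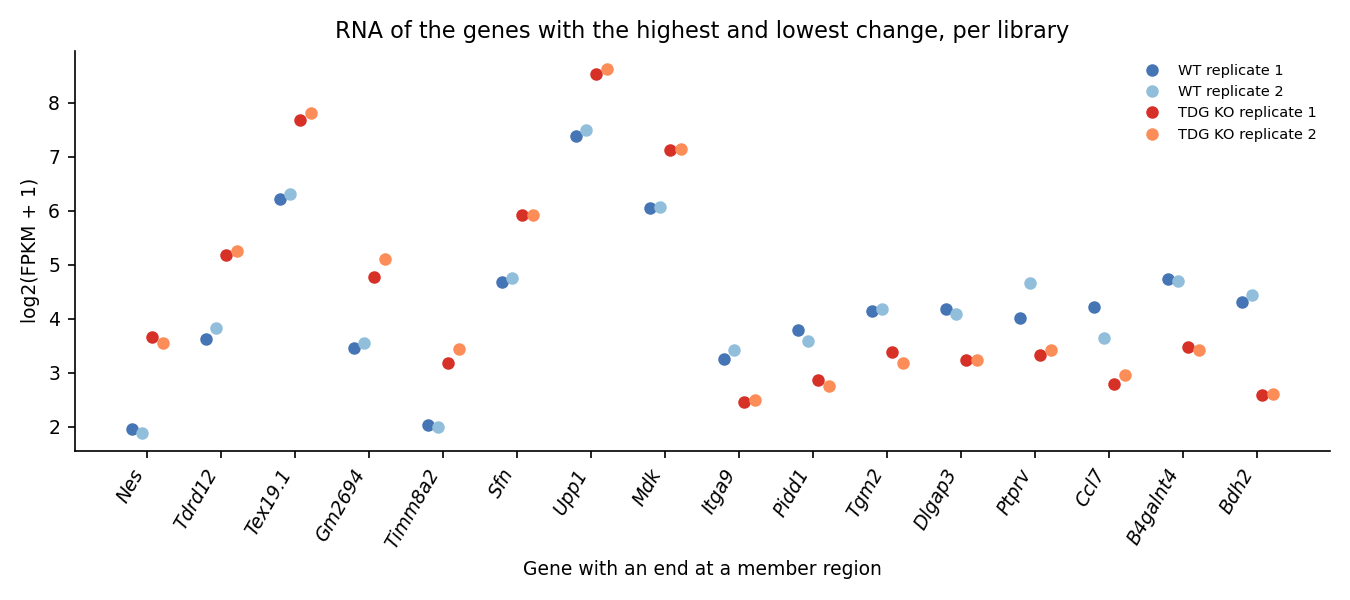
RNA level as log2(FPKM + 1) (y axis) in each of the 4 libraries for the 8 genes at members with the highest and the 8 with the lowest log2 change (x axis, in order of change). In every gene the 2 WT libraries (blue) and the 2 TDG KO libraries (red) do not overlap, which the choice of these genes required.

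Of 87 cytosolic ribosomal protein genes 12 were at members (13.8%), against 3.20% of all genes of the table and 6.49% of the tested ones. Of these 12 none rose and 5 fell, Rpl4, Rpl3, Rpl36a and Rps4x among them, while over the whole list 8 rose and 44 fell of 84. Rps4x was at 2377 and 2600 FPKM in WT against 1787 and 1930 in TDG KO, a log2 change of -0.42 ± 0.094 (adjusted p = 0.0092), and the member at its start, shown above with its strict match, had percentiles of 64.1, 58.7, 52.5 and 48.8. Rpl36a was at 2104 and 2165 in WT against 1426 and 1593 in TDG KO, with member percentiles of 68.1 and 62.8 against 52.8 and 54.5. Ribosomal protein genes have many near-identical copies, and how the authors' counting split them is not given, so their levels are uncertain. The calls of Rpl4 and Rpl3 were lost without either WT library, with adjusted p from 0.20 to 0.37, and that of Rpl3 also without TDG KO replicate 1 (0.054). Without WT replicate 1 or 2 the adjusted p was 0.054 and 0.071 for Rpl36a and 0.077 and 0.17 for Rps4x, so the fall of each of these 4 genes was called only with both WT libraries. Of 74 mitochondrial ribosomal protein genes 7 were at members, and 4 rose and 1 fell (31 and 7 of 74 over the list). Mrpl23 went from 49.4 and 59.8 to 90.2 and 100.1 FPKM, with a member at its start at percentiles 49.1 and 37.5 in WT against 79.5 and 65.2 in TDG KO, and Mrpl12, on chromosome 11, from 135 and 133 to 213 and 240. Mrpl1 rose by 0.40 log2 and Mrps21 fell by 0.24. The call of Mrps21 was lost without WT replicate 1 (adjusted p = 0.11), WT replicate 2 (0.058) or TDG KO replicate 1 (0.067).

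Some genes of the CTCF and TDG pathways had members at their ends, in lists of 7.41% (CTCF and cohesin), 10.3% (DNA methylation and demethylation) and 12% (base excision repair) at members, against 3.20% of all genes and 6.49% of tested ones. Of 27 genes of CTCF and cohesin 2 were at members: Bptf, a nucleosome remodelling factor gene on chromosome 11, rose from 26.7 and 26.9 to 36.6 and 35.0 FPKM (log2 change 0.41, where the median of its chromosome was 0.37), and Smc3, a core subunit of cohesin, fell from 61.4 and 67.3 to 54.7 and 50.4. Smc3 was no longer called without WT replicate 2 (adjusted p = 0.099) or TDG KO replicate 2 (0.079). Over that list 5 rose and 13 fell of 26 tested. Of 29 genes of DNA methylation and demethylation 3 were at members. Tet1, which oxidises 5-methylcytosine, was at 45.7 and 44.5 in WT against 37.2 and 24.7 in TDG KO (log2 change -0.56 ± 0.17, adjusted p = 0.027). The call of Tet1 was lost without either WT library, at adjusted p = 0.067 and 0.057. Its log2 change was -0.84 when TDG KO replicate 1 was left out and -0.27 when TDG KO replicate 2 was. Zbtb33 fell from 4.01 and 3.94 to 2.88 and 2.46. Its member, shown above with a loose match, was at 59.5 and 57.8 in WT against 67.8 and 74.1 in TDG KO. Those percentiles come from lists of unequal length, so they give no direction for CTCF there. Gadd45g, a stress-response gene linked to demethylation, rose from 2.103 and 1.43 to 3.21 and 2.99. Gadd45g was no longer called without TDG KO replicate 1 (adjusted p = 0.074) or 2 (0.054). Over this list 8 rose and 11 fell of 26. Of 25 genes of base excision repair, the pathway TDG opens, 3 were at members. Xrcc1, a scaffold of single-strand break repair, fell from 50.7 and 48.1 to 34.1 and 36.9, Pold1 rose from 37.5 and 39.0 to 43.4 and 50.5, and Aptx was not called. Pold1 was no longer called without TDG KO replicate 2 (log2 change 0.18 in place of 0.29, adjusted p = 0.089), WT replicate 1 (0.098) or WT replicate 2 (0.058). Over this list 6 rose and 12 fell of 25.

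The other lists gave single genes. None of 27 pluripotency genes had a member at its end, although 7 rose and 13 fell. Of 57 chromatin modifier genes 3 were at members, and all 3 fell: Kmt2d, a histone H3 methyltransferase gene, by 0.44 log2, Cbx5, which encodes the heterochromatin protein HP1 alpha, by 0.34, and Smarcb1, a subunit gene of the SWI/SNF remodeller, by 0.28, in a list where 10 rose and 28 fell. Each of these 3 calls was lost without WT replicate 1, at adjusted p from 0.051 to 0.064, and each also without at least 1 other library, at 0.056 to 0.081. Without TDG KO replicate 2 Cbx5 fell by 0.21. Of 49 imprinted genes 3 were at members, where H13 fell from 21.9 and 18.9 to 14.3 and 14.6 FPKM with a member at 84.4 and 82.7 in WT against 79.6 and 73.3 in TDG KO. The other members of the imprinted list, Asb4 and Axl, had no call. Of 32 cell cycle regulators Ccna2, the cyclin A2 gene, fell by 0.28 (adjusted p = 0.066 without WT replicate 2) and Cdc25a was not called. Of 366 zinc finger genes of the Zfp series 14 were at members, with 2 higher and 4 lower of 13 tested (24 and 128 of 290 over the list), such as Zfp444 at a log2 change of 0.54 and Zfp345 at -0.54. Among clustered histone genes Hist1h2bl rose from 0.42 and 0.41 to 1.87 and 2.37 FPKM. It passed the expression filter only through its TDG KO level, so the filter could let it through only as a rise. The 2 other histone genes at members and both Hox genes, Hoxa13 and Hoxd10, were below the expression filter. Of 28 feeder fibroblast genes Acta2, Col6a2 and Pdgfra were at members and none was called, while 3 rose and 15 fell of the 26 tested in the list, with Col6a2 at 11.2 and 6.80 in WT against 5.28 and 6.32 in TDG KO. The authors' deposited q-value for Col6a2 was 0.00087. With the filter at a mean of 5 FPKM (adjusted p = 0.030) or the replicate number as a block (0.0225) Col6a2 was called lower. Col6a2 was called lower when WT replicate 2 was left out (adjusted p = 0.0023), and Acta2 was called higher when WT replicate 1 was left out (0.013). Of the 4 genes with the highest WT level, Hspa8, a heat shock cognate chaperone gene, was at 3085 and 3396 in WT against 3661 and 3884 in TDG KO. It was not called (log2 change 0.22, adjusted p = 0.10). With the replicate number as a block (adjusted p = 0.045) or upper-quartile scaling (0.029) Hspa8 was called higher.

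The Trav and Ighv gene arrays held several members, a choice of families made after the values were seen. Of 128 Trav genes, the variable segments of the T cell receptor alpha chain on chromosome 14, 21 had a member at an end (16.4%), each with a region of its own. All 21 had the left end of the locus within 1 kb, 19 with the centre outside the gene on that side, as near as 3 bp for Trav3-4 at chr14:53776753-53777165, with percentiles of 56.3, 55.6, 66.8 and 67.6. At Trav9d-4 the region chr14:52983032-52983379 was 4.5 bp from the left end and had 37.4, 35.3, 33.9 and 34.9. In 18 of the 21 genes the right end also lay within 1 kb of the centre. Of the 21 genes 17 were at 0 FPKM in all 4 libraries and none passed the expression filter. The other 4 were Trav8d-2, at 0.183 and 0.214 FPKM in WT and 0 in TDG KO, and Trav3-4, Trav9-1 and Trav9-4, each above 0 in a single library. Their median TDG KO minus WT percentile was 3.73. Of 185 Ighv genes, the variable segments of the immunoglobulin heavy chain, 13 were at members (7.03%), with a median difference of 19.05. By contrast 4 of 1299 olfactory receptor genes and none of 162 Igkv or 542 vomeronasal receptor genes were at members. The median differences of Trav and Ighv are from the deposited lists, which were longer in TDG KO. Variable segments are near-identical copies, so where reads of one copy were placed is uncertain. The 23 clustered protocadherin genes at members were tied to 2 regions through shared locus ends, so they count as 2 places, and 4 of them were tested. Pcdhga8, the called gene, was at 32.0 and 31.9 FPKM in WT against 37.9 and 42.5 in TDG KO.

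Most members had no other member within 100 kb before them. Of the 1502 members 66 had another within 10 kb before them and 301 within 100 kb. Neighbours after a member were not counted, and no spacing of evenly scattered regions was set beside these counts, so they do not show whether members cluster. The fullest stretch of 1 Mb was the Trav array, with 14 members in chr14:53000001-54000000, followed by 13 members in chr7:19000001-20000000, beside genes such as Bcam, Clptm1, Gipr, Sympk and Tomm40, and by 10 each in chr1:74000001-75000000 and in chr19:4000001-5000000, the latter beside Mrpl11, Ndufv1 and Ppp1ca. The 1 Mb before the first stretch, which holds the rest of the Trav members, had 9. The median TDG KO minus WT percentile was 2.73, 5.45, 1.22 and 3.90 in the first 4 stretches and 7.78 in the last, where it was 7.24 over all members.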

How the data were processed

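CTCF peak lists and RNA levels of 2 WT and 2 TDG KO libraries each were used. The authors deposited 1 peak list per CTCF library, with a score per peak, and a table of FPKM per gene and library, per the file headers. Their comparison table also holds log2 values, scores, p-values and q-values, of which the authors' deposited q-values are quoted. Its gene loci gave gene ends. For the peak score, its meaning, control library and cutoff: not given in the sources used here. Per the submitters' processing notes the tools were TopHat2 2.1.1, Cufflinks 2.2.1, Cuffdiff, deepTools, MACS2 2.2.1 and Bowtie2 2.2.9 and the build mm10, with no roles given. Depth is unknown for both assays, so lists of unequal length limit any comparison of ranks. As the labels name no separate cultures, the spread behind each p-value may be technical.

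Scores were ranked only within their list. Peaks were merged at 1 bp of overlap, and strand came from RefSeq promoter tables of GRCm38.p6 (mm10); 1353 of 1501 genes at members matched RefSeq by symbol and 959 had a promoter entry. The RNA test was limma 3.58.1 (R 4.3.3) with trend, 2-sided, on log2(FPKM + 1) of 12035 genes at a mean of 1 FPKM or more, with Benjamini-Hochberg adjustment. Intervals are exact 95% binomial (Clopper-Pearson, scipy 1.17.1) and cover counting error only. Both procedures were tested on simulated data. Named genes were the 8 highest and 8 lowest called genes at members at a mean of 5 FPKM or more and with no overlap between groups, the 4 with the highest mean WT FPKM, and up to 4 called genes per list (otherwise up to 2); single regions were those with the smallest range, the largest shifts and values nearest the limits. The members, gene lists and rules were chosen with earlier results of these data known.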

Additional observations from a re-analysis of the deposited data

How the results depend on the processing

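The number of members was between 1424 and 1502 with equally many strongest peaks or a merging overlap of 50 bp, 1040 at percentiles of 30 to 85, 933 within 500 bp and 2537 within 2 kb; leaving out a list gave 1590 to 1860. The share at a gene end was 5.66% within 500 bp and 15.4% within 2 kb, and 9.07% to 9.35% without a list. The median TDG KO minus WT percentile was -0.35 when lists of 37099 peaks were merged anew and 6.45 without chromosome 11, and ran from 5.14 to 8.89 without a list. The median log2 change of genes at members was 0.037 with upper-quartile scaling, -0.019 with all genes of a shared locus and -0.017 without chromosome 11, and -0.011 to 0.011 without a library; as its sign changes between these settings, it gives no direction. The 398 calls became 242 within 500 bp, 355 with no expression filter, 412 with upper-quartile scaling and 301 to 328 without a library. The difference in peak width was 38.5 to 59.5 bp without a list. Replicate numbers did not pair the libraries (correlation of deviations -0.016 over 12035 genes); a fit with the replicate number as a block called 411 genes at members, and its median log2 change was 0.0026. Of the 43 called among 46 named genes, 28 kept their call under every setting in which they were tested. Zbtb33, Zfp345 and Hist1h2bl, which are among the 28, were not tested with the filter at a mean of 5 FPKM. Hist1h2bl was also not tested without TDG KO replicate 2, and it passed the main filter only through its TDG KO level. Genes that lost their call under some setting include Smc3, Pold1, Gadd45g, Kmt2d, Cbx5 and Smarcb1, and no named gene changed sign. With no expression filter 12 named genes lost their call.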
